A study of Mus musculus with 2 samples.

Results

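The 10 genes described here encode the enzymes that hydroxylate and crosslink collagen, namely the 5 lysyl oxidases Lox, Loxl1, Loxl2, Loxl3 and Loxl4, the 3 lysyl hydroxylases Plod1, Plod2 and Plod3, and the prolyl 4-hydroxylase subunits P4ha1 and P4ha2. They were chosen by gene symbol, and all 10 are among the 24346 symbols listed in both libraries. The tissue was dorsal skin of C57BL/6J mice, wounded in 1-day-old pups and taken 24 h later, with 1 mRNA library from WT littermates and 1 from PU.1 KO littermates. PU.1, encoded by Spi1, is a transcription factor of blood cells, and pups that lack it have no macrophages, no neutrophils, no mast cells and no T cells, so the comparison asks which transcripts of a wound depend on those cells. The knockout is a germline deletion that affects every tissue, the number of pups pooled in each library is not stated in the sources used here, and the wounds are called incisional in the study's methods and excisional in its design text.

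Collagen is modified in 2 places. In the endoplasmic reticulum, prolyl 4-hydroxylases convert prolines to 4-hydroxyproline, which keeps the triple helix stable at body temperature, and lysyl hydroxylases prepare lysines for glycosylation and for strong crosslinks. Both kinds of enzyme need iron, 2-oxoglutarate and ascorbate. Outside the cell, the copper-dependent lysyl oxidases turn lysines and hydroxylysines of collagen and elastin into reactive aldehydes that crosslink the fibrils, and in skin these enzymes come largely from fibroblasts and set the stiffness of dermis and scar.

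The values are FPKM, fragments per kilobase of transcript scaled to the number of mapped fragments, so levels of different genes can be compared within a library. Spi1 itself, the deleted gene, stood at 35.4 FPKM in WT against 1.45 FPKM in PU.1 KO. The single-read steps of low genes gave estimated depths of 1.38e+07 fragments for WT and 1.58e+07 for PU.1 KO. From these, a read number was estimated for each gene, and each ratio below is PU.1 KO over WT with a 95% counting interval (exact binomial) that covers counting error only. With 1 library per genotype there is no spread between animals and no test, and a difference outside its counting interval is a difference between these libraries. The macrophage markers Adgre1, Csf1r, Cd68, Mrc1, C1qa, C1qb and Tyrobp summed to 524 FPKM in WT against 5.22 FPKM in PU.1 KO, and 4 of these 7 (Adgre1, C1qa, C1qb, Tyrobp) were listed at 0 in PU.1 KO. Xist was listed at 0 in WT and at 9.48 FPKM in PU.1 KO, and 4 genes of the Y chromosome (Uty, Kdm5d, Eif2s3y, Ddx3y) were listed at 0 in PU.1 KO only, so that genotype and the sex of the pups cannot be told apart in any value below.

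None of the 10 enzymes differed by a ratio of 1.5 or more in either direction. Among the 13237 genes of at least 1 FPKM in 1 or both libraries, 8.17% were lower and 5.45% higher in PU.1 KO at that ratio, and 4.45% and 1.71% at a ratio of 2. The enzymes' log2 ratios ran from −0.25 (Lox) to 0.05 (Loxl2), a range that holds 38.0% of those genes. Their median was −0.18, beside −0.00415 for all genes of at least 1 FPKM, and 8 of the 10 were lower by some amount in PU.1 KO, beside 50.7% of genes. The counting interval lay wholly below 1 for 4 enzymes (Lox, Loxl1, Plod2, Plod3) and above 1 for none, beside 24.1% and 24.3% of the 12685 genes with a transcript length. For 9 of the 10 the interval lay wholly inside a ratio of 1.5 either way. The exception was Loxl3, the enzyme with the fewest reads. The share of all genes with an interval inside a ratio of 1.5 was not computed.

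**Figure D1:**
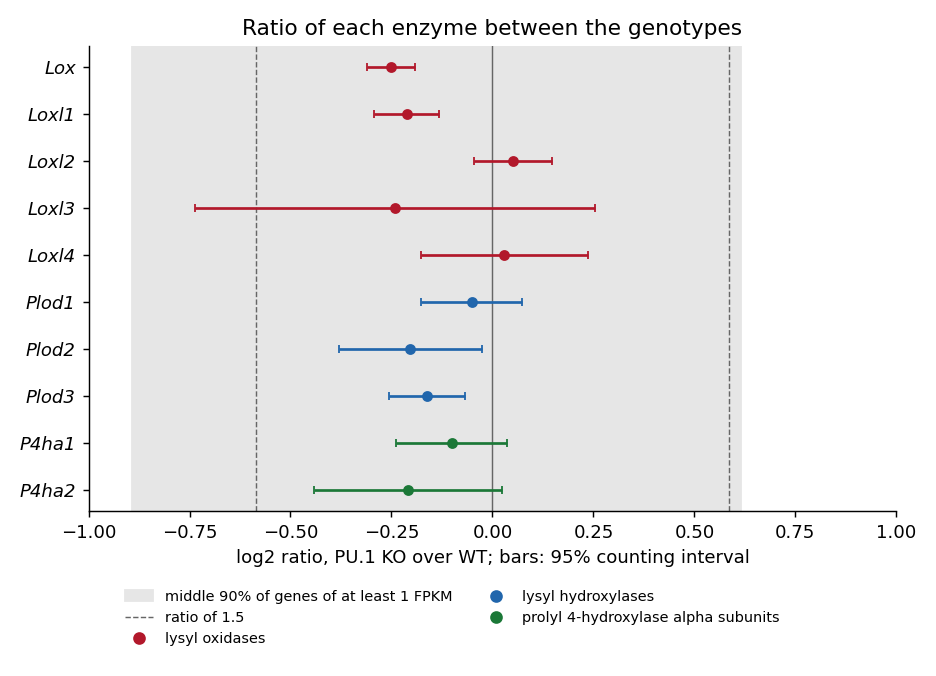
The log2 ratio of each enzyme (PU.1 KO over WT, horizontal axis) with its 95% counting interval, 1 library per genotype, coloured by enzyme class. Every point lies between the dashed lines at a ratio of 1.5 and within the grey band that holds the middle 90% of genes of at least 1 FPKM (log2 ratios from −0.89 to 0.62), and the widest bar is that of Loxl3.

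Lox, the founding member of the lysyl oxidases, was the most abundant of the 10 enzymes in both libraries. It lies on chromosome 18 of mm10 from 52516060 to 52529867. Its level was 74.0 FPKM in WT, from an estimated 4637 reads, and 62.2 FPKM in PU.1 KO, from 4475 reads. The ratio of 0.840 (0.806 to 0.876) was the lowest of the 10 and lay clear of 1 by counting error.

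Loxl1, which is needed for the renewal of elastic fibers, followed in both libraries. This gene, on chromosome 9 from 58287723 to 58313212, had 59.9 FPKM in WT against 51.7 FPKM in PU.1 KO, a ratio of 0.863 (0.817 to 0.912). Lox and Loxl1 were therefore lower by like amounts, and their level relative to each other did not move beyond counting error. Loxl1 had 0.809 FPKM per FPKM of Lox in WT and 0.831 in PU.1 KO, and the ratio of these was 1.03 (0.959 to 1.10).

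Loxl2, Loxl3 and Loxl4 form the branch of the family that carries scavenger receptor cysteine-rich domains. Loxl2, which also acts on the collagen IV of basement membranes, lies on chromosome 14 from 69608692 to 69695834. It had 40.0 FPKM in WT against 41.5 FPKM in PU.1 KO, a ratio of 1.04 (0.968 to 1.11). Loxl4, on chromosome 19 from 42592279 to 42612806, had 7.37 and 7.52 FPKM, a ratio of 1.02 (0.885 to 1.18). These 2 enzymes were the ones that were not lower in PU.1 KO, and their intervals hold 1.

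Loxl3, on chromosome 6 from 83034205 to 83052566, was near the limit of what these libraries resolve. It had 1.33 FPKM in WT, from an estimated 72 reads, and 1.13 FPKM in PU.1 KO, from 70 reads, and its ratio of 0.846 (0.600 to 1.19) allows both a lower and a higher level. Its exons overlap those of Htra2 on the other strand, as those of Plod3 overlap Znhit1, and whether the counting used strand is not given in the sources used here, so the values of Loxl3 and Plod3 may hold reads of these neighbours. Htra2 had 13.96 FPKM in WT against 11.69 FPKM in PU.1 KO, and Znhit1 had 31.7 and 27.2 FPKM. Lox, Loxl2 and Plod2 overlap noncoding or unclassified transcripts of the other strand that were not analysed here. Lox was 55.6 times the level of Loxl3 in WT and 55.2 times in PU.1 KO. The order from the most to the least abundant lysyl oxidase (Lox, Loxl1, Loxl2, Loxl4, Loxl3) was the same in both libraries.

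Summed over the class, the lysyl oxidases had 183 FPKM in WT against 164 FPKM in PU.1 KO, a ratio of 0.898 (0.872 to 0.925). Within that sum the share of Lox was 40.5% in WT and 37.9% in PU.1 KO, that of Loxl1 32.8% and 31.5%, and that of Loxl2 21.9% and 25.3%. Loxl4 made up 4.03% and 4.58%, and Loxl3 0.729% and 0.687%. The balance inside the class does not depend on how the libraries are scaled to each other. Loxl2 had 0.541 FPKM per FPKM of Lox in WT and 0.667 in PU.1 KO, 1.23 times more (1.14 to 1.33). Loxl4 over Lox was 1.21 times higher (1.05 to 1.41), while Loxl3 over Lox was unresolved at 1.01 (0.723 to 1.40). Of 8 such pairs compared across the classes, the interval left out 1 for 3. These were Loxl2 and Loxl4 over Lox, and P4ha3, which is not among the enzymes chosen, over P4ha1. The intervals are not corrected for the number of pairs, and the share over all pairs of genes was not computed. For single genes, the interval lay wholly below 1 for 24.1% and wholly above 1 for 24.3%.

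**Figure D2:**
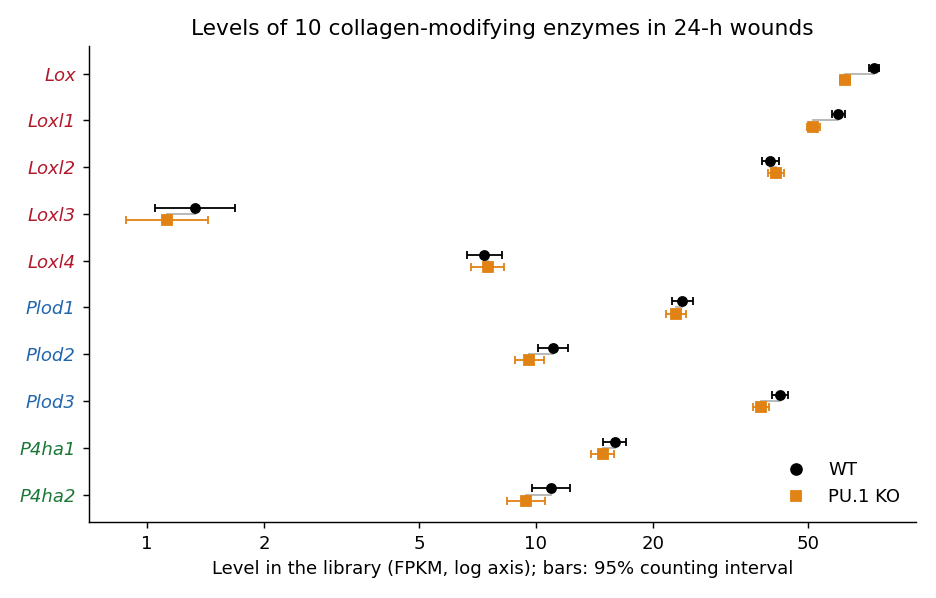
The level of each enzyme in FPKM (log axis) in the WT library (black circles) and the PU.1 KO library (orange squares), with 95% counting intervals of the level. Levels span from 1.33 FPKM (Loxl3) to 74.0 FPKM (Lox) in WT, far more than the distance between the libraries for any 1 gene.

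Among the lysyl hydroxylases, Plod3 was the most abundant. Its product, LH3, also transfers sugars to hydroxylysine and is the member of the family needed for basement membranes. The gene lies on chromosome 5 from 136987019 to 136996646, and had 42.4 FPKM in WT against 37.9 FPKM in PU.1 KO, a ratio of 0.893 (0.837 to 0.954). Plod1, whose product hydroxylates lysines of the helical part of collagen and whose loss causes a form of Ehlers-Danlos syndrome in humans, lies on chromosome 4 from 147909753 to 147936776. It had 23.8 and 23.0 FPKM, a ratio of 0.965 (0.885 to 1.05) that holds 1.

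Plod2 encodes LH2, the enzyme of the telopeptide lysines, whose activity favours the hydroxylysine-derived crosslinks known from fibrotic tissue and scars. It was the least abundant of the 3, on chromosome 9 from 92539636 to 92608428, with 11.1 FPKM in WT, from an estimated 529 reads, and 9.62 FPKM in PU.1 KO, from 528 reads. The ratio of 0.868 (0.769 to 0.982) lay just outside 1, and when both libraries were brought to an equal FPKM sum the interval ran from 0.794 to 1.01, so this call rests on the scaling. The deposited values are per gene and cannot separate the splice forms of Plod2.

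The class summed to 77.3 FPKM in WT against 70.5 FPKM in PU.1 KO, a ratio of 0.912 (0.869 to 0.956). Its composition was close to the same in both libraries, with Plod3 at 54.9% and 53.7%, Plod1 at 30.8% and 32.6% and Plod2 at 14.3% and 13.7%. Relative to Plod3, neither Plod1 (1.08, 0.970 to 1.20) nor Plod2 (0.972, 0.848 to 1.11) moved beyond counting error between the libraries.

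**Figure D3:**
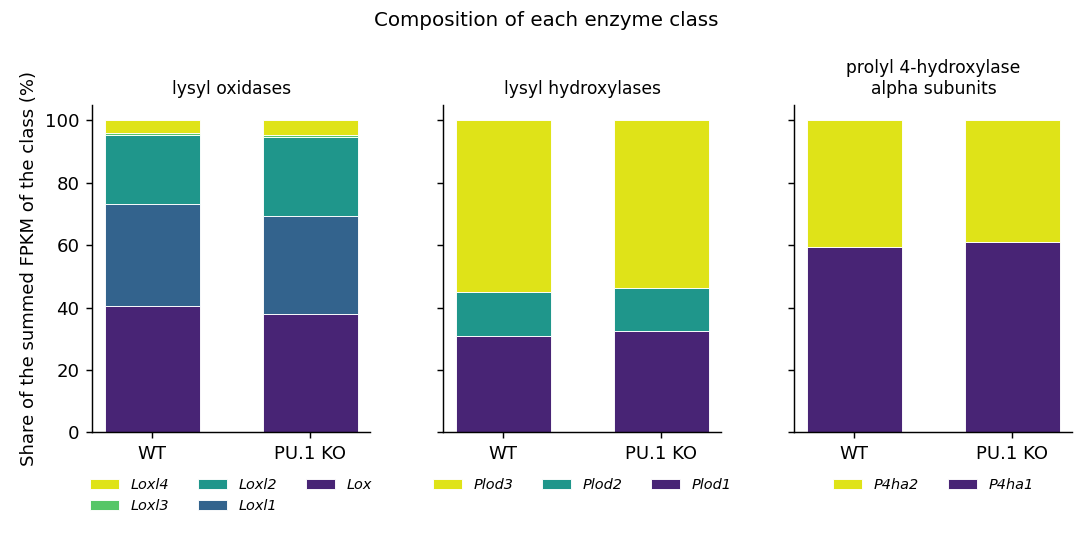
The share of each gene in the summed FPKM of its class (vertical axis, %) in the WT and the PU.1 KO library. The largest shift in the 3 panels is that of Loxl2, from 21.9% to 25.3% of the lysyl oxidases. Plod3 holds more than 50% of the lysyl hydroxylases in both libraries. The prolyl 4-hydroxylase panel holds P4ha1 and P4ha2 only, and P4ha1 is the larger. With P4ha3 added, P4ha1 made up 45.8% of the alpha subunits in WT and 42.5% in PU.1 KO.

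P4ha1 and P4ha2 encode the catalytic alpha subunits of collagen prolyl 4-hydroxylase, which work as tetramers with the beta subunit P4hb, a protein disulfide isomerase. P4ha1, on chromosome 10 from 59323197 to 59373304, had 15.9 FPKM in WT against 14.8 FPKM in PU.1 KO, a ratio of 0.932 (0.848 to 1.03). P4ha2, on chromosome 11 from 54100924 to 54131668, had 10.9 and 9.45 FPKM, a ratio of 0.865 (0.737 to 1.02). Both intervals hold 1, and so does that of P4ha2 over P4ha1 (0.928, 0.773 to 1.11). P4ha1 exceeded P4ha2 by 1.46 times in WT and by 1.57 times in PU.1 KO.

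The third alpha subunit, P4ha3, is not among the 10 and went the other way, a value singled out after it was seen. It had 7.90 FPKM in WT against 10.6 FPKM in PU.1 KO, a ratio of 1.35 (1.14 to 1.59), and it was 1.44 times higher (1.20 to 1.74) relative to P4ha1. The 3 alpha subunits together then had 34.8 FPKM in WT against 34.9 FPKM in PU.1 KO, with P4ha3 making up 22.7% of the WT sum and 30.5% of the PU.1 KO sum. P4hb had 483 and 428 FPKM, 13.9 and 12.2 times the alpha subunits together.

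Ordered by level, the 10 enzymes ran in WT from Lox through Loxl1, Plod3, Loxl2, Plod1, P4ha1, Plod2, P4ha2 and Loxl4 to Loxl3. In PU.1 KO, Loxl2 (41.5 FPKM) stood above Plod3 (37.9 FPKM), and the other positions were the same. Plod3 and Loxl2 had overlapping intervals of level in both libraries, as did Plod2 and P4ha2, and all other neighbours in the order were apart by counting error. Such intervals leave out the error of the transcript models, which also enters a comparison between genes.

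The fibrillar collagens that these enzymes modify were slightly higher in PU.1 KO, the opposite direction to most of the enzymes. Col1a1 had 350 FPKM in WT against 385 FPKM in PU.1 KO (ratio 1.10, 1.08 to 1.12), Col1a2 had 373 and 406 FPKM (1.09, 1.07 to 1.10), and Col3a1 had 1042 and 1110 FPKM (1.07, 1.06 to 1.08). Eln, the elastin precursor that Lox and Loxl1 crosslink, had 123 and 119 FPKM (0.966, 0.934 to 1.0004). Per 1000 FPKM of Col1a1, Col1a2 and Col3a1 together, the lysyl oxidases had 103 FPKM in WT against 86.3 FPKM in PU.1 KO, a ratio of 0.834 (0.809 to 0.859). The lysyl hydroxylases had 43.8 and 37.1 FPKM per 1000 (0.847, 0.807 to 0.888), and P4ha1 with P4ha2 had 15.2 and 12.8 FPKM per 1000 (0.840, 0.772 to 0.915). The collagen sum itself was 1765 FPKM in WT against 1901 FPKM in PU.1 KO, a ratio of 1.08. A gene of equal FPKM in both libraries therefore also falls below 1 in this measure. The share of all genes below 1 per collagen was not computed. In this measure the scaling between the libraries cancels, but the prolyl 4-hydroxylase value depends on which alpha subunits enter it. With P4ha3 added, the alpha subunits had 19.7 and 18.4 FPKM per 1000, a ratio of 0.934 (0.866 to 1.01) that holds 1.

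Cell type markers moved between the libraries too. All 8 fibroblast markers (Col1a1, Col1a2, Dcn, Lum, Pdgfra, Pdgfrb, Thy1, Fbln1) were higher in PU.1 KO, with log2 ratios from 0.06 to 0.54. None passed a ratio of 1.5, and their summed level was 1712 FPKM in WT against 2150 FPKM in PU.1 KO. Col1a1 and Col1a2 are the collagens already given above, so they are not separate evidence. In WT they had 350 and 373 FPKM of that sum. All 5 keratinocyte markers (9605 and 10964 FPKM summed) and all 5 endothelial markers (117 and 144 FPKM) were higher as well, and all 6 skeletal muscle markers passed a ratio of 1.5, with sums of 7358 and 12620 FPKM. The smooth muscle and myofibroblast markers Acta2, Tagln, Myh11 and Cnn1 summed to 124 and 117 FPKM, mostly Acta2 and Tagln, and their median log2 ratio was −0.24. The adipocyte markers summed to 3567 and 3134 FPKM, nearly all of it Fabp4, while their median log2 ratio was −0.56 and Plin1 had a ratio of 0.446. Mast cell markers were lower (686 and 7.30 FPKM), and no cartilage marker reached 1 FPKM. Most of the mast cell sum left in PU.1 KO was Kit, with 8.08 FPKM in WT against 5.77 FPKM in PU.1 KO (0.714, 0.630 to 0.809). The neutrophil markers (5 of 6 listed) summed to 12140 and 3652 FPKM, nearly all of it S100a8 and S100a9, while Csf3r and Retnlg were listed at 0 in PU.1 KO. Which cells hold the S100a8 and S100a9 left in PU.1 KO was not tested, so that sum does not measure neutrophils. Cxcr2 had 11.2 FPKM in WT against 7.17 FPKM in PU.1 KO (0.638, 0.551 to 0.738). In bulk tissue a change in the number of cells and a change of RNA per cell cannot be told apart, and the part of these markers in the enzyme ratios was not tested.

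The collagen pathway beyond the 10 enzymes was described with a list of 34 other genes, of which 30 reached 1 FPKM in 1 or both libraries and 4 (Colgalt2, Mia2, Tll2, Adamts3) did not. Of the 30, 18 were lower and 12 higher in PU.1 KO by some amount, and their median log2 ratio was −0.03. At a ratio of 1.5, 3 were lower and none higher, beside 8.17% lower and 5.45% higher among all genes of at least 1 FPKM. Its most abundant folding genes were lower by small amounts, as most of the 10 enzymes were. Serpinh1 (HSP47), which binds the folded triple helix, had 225 FPKM in WT against 217 FPKM in PU.1 KO (ratio 0.965, 0.933 to 0.998), and Ppib, the prolyl isomerase of the prolyl 3-hydroxylase complex, had 266 and 239 FPKM (0.899, 0.851 to 0.9495). The ratio of the beta subunit P4hb was 0.886 (0.868 to 0.905). The largest departures among genes that act inside the cell were those of Tmem38b and Creb3l1, both singled out after their values were seen. Tmem38b, an ion channel of the endoplasmic reticulum needed for collagen synthesis in bone, had 20.6 and 29.4 FPKM (ratio 1.43, 1.30 to 1.56). Creb3l1, a transcription factor of secretory genes, had 25.1 and 17.96 FPKM (0.715, 0.646 to 0.793).

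The 3 genes past a ratio of 1.5 were Thbs1, Pcolce2 and Fmod, and the call of Fmod depends on the processing. Thbs1, thrombospondin 1, a matricellular protein of platelets and inflamed tissue that can activate latent TGFβ, had 252 FPKM in WT against 96.0 FPKM in PU.1 KO, a ratio of 0.381 (0.371 to 0.390). Pcolce2, an enhancer of procollagen C-proteinase, had 5.49 and 2.99 FPKM, a ratio of 0.546 (0.455 to 0.652). Fmod, a proteoglycan that brings lysyl oxidase to its sites on collagen, had 1.93 and 1.25 FPKM, a ratio of 0.650 (0.453 to 0.921) from an estimated 78 and 58 reads. Its ratio was 0.671 with both libraries at an equal FPKM sum and 0.769 with a pseudocount of 1 FPKM, short of the call. The intervals of Thbs1 and Pcolce2 lay wholly below the ratio of every one of the 10 enzymes, while that of Fmod reached into their range. These genes were picked for ratios past 1.5, which no enzyme passed, so their distance from the enzymes follows largely from that choice.

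Genes whose products bind or activate lysyl oxidase did not share a direction. Bmp1, listed with the procollagen-processing genes, encodes the proteinase that cleaves procollagen and releases active lysyl oxidase from its precursor, and had 57.0 FPKM in WT against 47.0 FPKM in PU.1 KO (0.825, 0.785 to 0.867). Fn1, the fibronectin on which lysyl oxidase is activated, had 62.6 and 44.7 FPKM (0.714, 0.689 to 0.739), and Efemp2, fibulin 4, which tethers lysyl oxidase to tropoelastin, had 52.6 and 42.3 FPKM (0.805, 0.740 to 0.876). Higher in PU.1 KO were Postn, periostin, which supports the action of Bmp1, with 370 and 450 FPKM (1.22, 1.19 to 1.24), and Fbln5 with 9.19 and 11.04 FPKM (1.20, 1.09 to 1.32). The 6 genes of the lysyl oxidase partner group (Thbs1, Fmod, Fn1, Efemp2, Postn, Fbln5) had a median log2 ratio of −0.40, the lowest of the 5 pathway groups, with 4 lower and 2 higher.

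**Figure D4:**
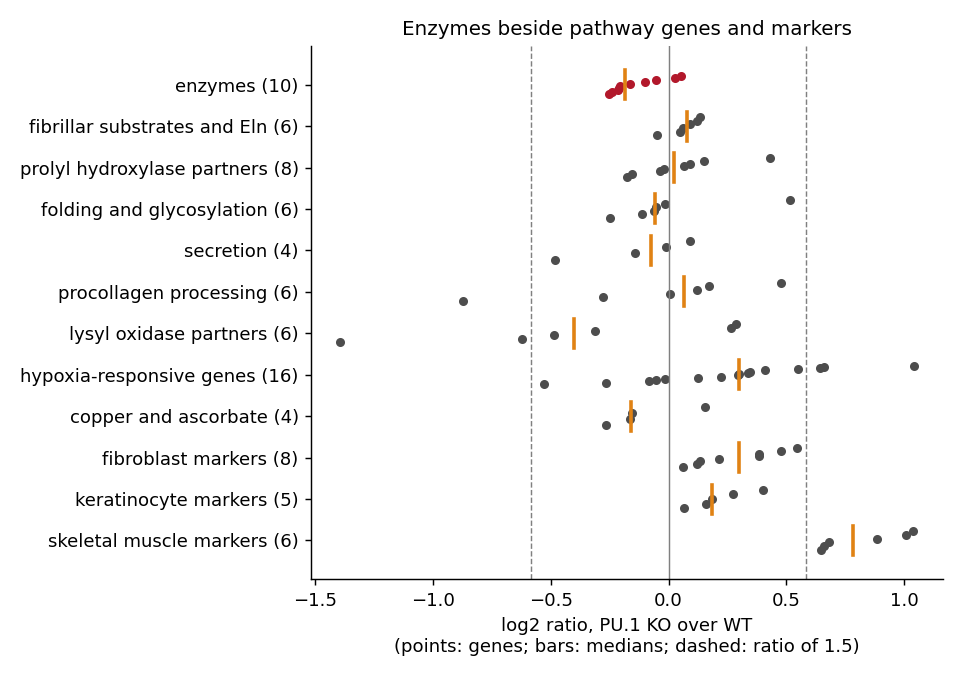
The log2 ratio (PU.1 KO over WT) of each gene of at least 1 FPKM in 1 or both libraries, by list, with the number of genes in parentheses and the median as an orange bar. The 10 enzymes (red) keep between −0.25 and 0.05, while lysyl oxidase partners reach −1.39 (Thbs1) and hypoxia-responsive genes reach 1.04 (Egln3).

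Several of the 10 enzymes, among them P4ha1, P4ha2, Plod1, Plod2, Lox and Loxl2, are known targets of the hypoxia-inducible factors, so they were set beside 16 other genes known to respond to low oxygen. Of the 16, 11 were higher and 5 lower in PU.1 KO, with a median log2 ratio of 0.30. At a ratio of 1.5, 3 were higher and none lower, beside 5.45% higher and 8.17% lower among all genes of at least 1 FPKM. The 3 became 2 with a pseudocount of 1 FPKM, which loses Ankrd37, and 4 at an equal FPKM sum, which adds Ndrg1. Egln3, an oxygen-sensing prolyl hydroxylase that acts on the factors themselves, had 47.9 FPKM in WT against 98.5 FPKM in PU.1 KO (2.06, 1.94 to 2.18). Vegfa, the vascular growth factor, had 13.2 and 20.8 FPKM (1.58, 1.42 to 1.75), and Ankrd37 had 4.07 and 6.35 FPKM (1.56, 1.04 to 2.33). The abundant glycolytic genes of the list were less apart, with Aldoa at 1004 and 1231 FPKM, Ldha at 758 and 715 FPKM and Pgk1 at 328 and 316 FPKM. Aldoa is also an abundant enzyme of skeletal muscle, whose 6 markers were all higher in PU.1 KO, and the part of muscle in this list was not tested.

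Promoter sequences of RefSeq (GRCm38.p6, 250 bases before to 50 bases after the start) were matched for 5 of the 10 enzymes, Plod1, Plod3, P4ha1, P4ha2 and Loxl4, and not for Lox, Loxl1, Loxl2, Loxl3 and Plod2. The core of the hypoxia response element, searched on both strands as ACGTG after the values were known, was found in Plod3, P4ha1 and P4ha2 and not in Plod1 and Loxl4, and 19.6% of all 32851 promoter windows hold it. The related core GCGTG was found in all 5, beside 32.4% of windows. The stretches of 29 bases around ACGTG are shown for these 3 enzymes, the matched members whose promoter holds it. Each is printed 5′ to 3′ on the gene's own strand with the core, or its reverse complement, in capitals.
Plod3, chr5:136986953-136986981, plus strand: cttgaagtcattACGTGatgttcccttgg
P4ha1, chr10:59323268-59323296, plus strand: tgtgacagagcgCACGTagcgagggctgc
P4ha2, chr11:54100834-54100862, plus strand: tgtgcatcgcatACGTGcagcgcgtggcg
P4ha2, chr11:54100922-54100950, plus strand: cgggaggtggggACGTGgcggaggctcaa
The ratios of these enzymes were 0.893 for Plod3, 0.932 for P4ha1 and 0.865 for P4ha2. Of the 16 hypoxia-responsive genes, 14 had a matched promoter and 12 held the core in 1 or more of theirs, with ratios from 0.693 (Pfkfb3) to 2.06 (Egln3), 9 above and 3 below 1. A match of 5 letters describes the sequence and does not show that a factor binds there.

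The cofactor supply was described with 5 genes, of which Slc23a1 stayed below 1 FPKM. Atox1, the copper chaperone of the secretory route, had 378 FPKM in WT against 314 FPKM in PU.1 KO (0.831, 0.777 to 0.889). Slc31a1, the copper importer, had 25.5 and 22.9 FPKM (0.897, 0.829 to 0.970), and Atp7a, which pumps copper into the Golgi where lysyl oxidases receive it, had 6.22 and 6.92 FPKM (1.11, 0.974 to 1.27). Slc23a2, a transporter of ascorbate, had 5.04 and 4.50 FPKM (0.893, 0.778 to 1.02). None of these passed a ratio of 1.5, and their median log2 ratio was −0.16.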

How the data were processed

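Skin wounds of WT and PU.1 KO pups were measured by mRNA-Seq, with 1 library per genotype. The authors made stranded mRNA libraries, mapped single-end reads to mm10 and deposited FPKM values per gene symbol from Cuffnorm 2.2.1; the submitters' processing notes also name TopHat2 2.1.1, Bowtie2 2.2.8, SAMtools 0.1.18 and Cuffdiff 2.2.1. Neither the annotation nor a filter on reads is named in the sources used here.

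Ratios were taken from the deposited FPKM, with values below 0.1 raised to 0.1. Depth was estimated from low genes. Among genes below 2 FPKM in WT, 459 had the same WT over PU.1 KO ratio, 1.149 (tolerance 0.001), which marks genes with as many reads in either library, and 77 genes with 1 transcript of at least 1000 bases in GENCODE M21 gave the value of 1 read, taking length less 200 bases. Read numbers are estimates, so an interval is too narrow or too wide where the transcript differs from the authors'. Intervals of ratios are exact binomial, those of levels exact Poisson, and those of sums, ratios of 2 genes and values per collagen are normal approximations on the log scale. PCR reads without molecular identifiers are not independent molecules. Coordinates are those of RefSeq on GRCm38.p6, the assembly of mm10. No test across animals was possible.

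The members and lists were chosen with earlier results of these data known. Genes named were Spi1, the 10 enzymes, the collagens Col1a1, Col1a2 and Col3a1 and Eln, the pathway genes past a ratio of 1.5 and its 5 most abundant, the 3 largest ratios and the 3 most abundant genes of the hypoxia and the copper and ascorbate lists, and markers of fibroblasts, macrophages, neutrophils, mast cells, keratinocytes, endothelium, smooth muscle and myofibroblasts, skeletal muscle, cartilage, adipocytes and sex. P4ha3, Tmem38b, Creb3l1, Bmp1, Fn1, Efemp2, Fbln5, Htra2, Znhit1, Ndrg1 and Pfkfb3 were added with their values already known. Depth estimation, calls and intervals were checked on simulated libraries. Alternatives were the floor, a pseudocount, scaling, filters, the transcript length and the collagen denominator. Python 3.11.15 with numpy 2.4.6, pandas 2.3.3, scipy 1.17.1 and matplotlib 3.10.9 was used.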

Additional observations from a re-analysis of the deposited data

How the results depend on the processing

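No enzyme passed a ratio of 1.5 in either direction with a floor or a pseudocount of 1 FPKM, or with the libraries rescaled to the same FPKM sum (PU.1 KO multiplied by 1.03) or to a median ratio of 1. In each of these 4 settings 8 of the 10 enzymes were lower in PU.1 KO, and their median log2 ratio lay between −0.18 and −0.14. All 40 alternative ratios of single enzymes stayed inside the main counting interval. With the same FPKM sum, 3 instead of 4 counting intervals lay below 1 (Plod2 was lost), beside 19.6% of genes below and 30.1% above, and the pathway median changed from −0.03 to 0.02. Full transcript length moved no interval bound across 1. Per FPKM of Col1a1 alone, the class ratios were 0.817, 0.830 and 0.824. With P4ha3, an alternative chosen after seeing the data, the prolyl 4-hydroxylase ratio per collagen was 0.934 in place of 0.840. Fmod was lost from the 3 pathway genes lower at a ratio of 1.5 with the pseudocount, at the same FPKM sum and among genes of at least 5 FPKM, and hypoxia genes higher at that ratio numbered 2 to 4. The share of all genes higher at a ratio of 2 was 0.672% with the pseudocount and 1.004% among genes of at least 5 FPKM, and at a ratio of 1.5 it was 3.24% with the pseudocount. Without Lox, Loxl1 made up 55.1% (WT) and 50.8% (PU.1 KO) of the other lysyl oxidases, and without Plod3, Plod1 made up 68.2% and 70.5% of the other lysyl hydroxylases. No paired analysis was possible because each genotype has 1 library, and none could be left out. Depth limits Loxl3 most, with about 70 reads in each library.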
